A study of Mus musculus with 48 samples.

Results

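The interferon response genes are 39 genes that cells switch on when interferon binds its receptors. They were taken by gene name from the deposited table of liver expression values, where all 39 were found once among 49315 genes. All 39 also passed the filter on low values and were among the 15820 genes tested. Liver RNA of 48 C57BL/6J mice had been sequenced, 6 mice in each of 8 groups that cross exposure, diet and sex. Exposed mice received a weekly mixture of TCDD at 10 ng/kg, PeCDF at 80 ng/kg and PCB126 at 140 ng/kg, which are dioxin-like ligands of the aryl hydrocarbon receptor, and the others received vehicle. Each exposure was run on a high-fat diet (HFD) or a low-fat diet (LFD) in males (M) and in females (F), and livers were taken after 12 weeks. The 8 groups were therefore M HFD mixture, M HFD vehicle, M LFD mixture, M LFD vehicle, F HFD mixture, F HFD vehicle, F LFD mixture and F LFD vehicle. The labels used here give no age.

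Type I interferons signal through the receptor chains Ifnar1 and Ifnar2 to the kinases Jak1 and Tyk2, which phosphorylate Stat2. Stat2 joins Irf9 in a complex that binds the interferon-stimulated response element of target promoters. Interferon gamma signals through Ifngr1 and Ifngr2, and its target promoters carry the gamma-activated site. The targets include blockers of viral translation, sensors of viral RNA, GTPases that attack the vacuoles of intracellular parasites, and subunits of the immunoproteasome, which cuts peptides for display to T cells. In liver both hepatocytes and Kupffer cells, the resident macrophages, can respond.

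The promoter letters that these signals read are shown first, because the same element recurs in members of different families. RefSeq start-site windows (GRCm38.p6, 250 bases before to 50 after the annotated start) were matched by gene symbol for 29 of the 39 members. The core of the interferon-stimulated response element was searched on both strands as GAAA, any 2 bases and GAAA again, which reads TTTC, any 2 bases and TTTC from the other strand. It stood in the windows of 18 of the 29 members (62.1%), against 3.99% of all 27025 genes with a window and 3.44% of all 32851 windows. The core of the gamma-activated site, TTCNNNGAA, stood in 7 members (24.1%), against 9.55% of all genes and 8.3% of all windows. The core of the aryl hydrocarbon receptor's response element, GCGTG or CACGC, stood in 11 members (37.9%), close to the 35.2% of all genes and 32.4% of all windows. A match describes letters and is not a measured binding site. The 200 bases before the start are printed here in the direction of transcription for 3 IFIT genes and Isg15, which carry the response element in several copies, for Oas1a and Igtp, which carry both elements, and for Gbp3, the member that was lower in males in all 4 comparisons of the sexes. Capitals mark both elements, and overlapping copies form 1 run.
Ifit1: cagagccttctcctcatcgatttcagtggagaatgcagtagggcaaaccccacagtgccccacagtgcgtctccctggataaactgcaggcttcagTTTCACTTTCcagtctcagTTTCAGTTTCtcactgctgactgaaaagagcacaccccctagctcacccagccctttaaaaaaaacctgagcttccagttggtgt
Ifit3: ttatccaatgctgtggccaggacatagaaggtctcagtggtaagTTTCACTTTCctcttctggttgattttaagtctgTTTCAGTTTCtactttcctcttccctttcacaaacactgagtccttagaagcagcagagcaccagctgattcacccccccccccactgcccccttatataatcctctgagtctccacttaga
Ifit3b: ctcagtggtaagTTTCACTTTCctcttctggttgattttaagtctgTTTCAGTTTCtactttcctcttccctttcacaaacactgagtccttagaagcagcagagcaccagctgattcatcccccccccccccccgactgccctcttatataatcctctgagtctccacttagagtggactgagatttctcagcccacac
Isg15: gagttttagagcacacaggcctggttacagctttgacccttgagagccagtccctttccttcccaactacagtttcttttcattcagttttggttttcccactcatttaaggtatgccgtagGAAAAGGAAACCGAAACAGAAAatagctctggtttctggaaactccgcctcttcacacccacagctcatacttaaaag
Oas1a: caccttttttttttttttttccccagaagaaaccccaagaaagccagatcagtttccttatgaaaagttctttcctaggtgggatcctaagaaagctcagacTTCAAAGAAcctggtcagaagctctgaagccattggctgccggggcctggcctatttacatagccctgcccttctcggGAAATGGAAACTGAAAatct
Gbp3: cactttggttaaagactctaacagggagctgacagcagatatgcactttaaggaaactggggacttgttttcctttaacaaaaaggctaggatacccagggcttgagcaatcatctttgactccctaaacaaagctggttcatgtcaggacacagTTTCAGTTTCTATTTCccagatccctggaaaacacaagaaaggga
Igtp: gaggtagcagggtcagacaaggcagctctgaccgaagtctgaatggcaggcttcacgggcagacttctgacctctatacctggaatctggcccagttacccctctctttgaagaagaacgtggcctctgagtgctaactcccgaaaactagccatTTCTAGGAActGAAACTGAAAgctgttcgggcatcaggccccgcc

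The printed windows lie at chr19:34640689-34640888 on the plus strand for Ifit1, chr19:34583329-34583528 on the plus strand for Ifit3 and chr19:34607757-34607956 on the plus strand for Ifit3b. They lie at chr4:156200819-156201018 on the minus strand for Isg15, chr5:120907526-120907725 on the minus strand for Oas1a, chr3:142559844-142560043 on the plus strand for Gbp3 and chr11:58199356-58199555 on the plus strand for Igtp. The windows of Ifit3 and Ifit3b shared 258 of 260 aligned bases, once shifted against each other, with 80 bases left in gaps. The transcripts of Ifit3 and Ifit3b were not compared here. Whether reads of these neighbours were split between them by the authors' counting is unknown, so their values may be uncertain as separate genes. The windows of Psmb9 and Tap1, which are transcribed away from each other, shared 275 bases at chr17:34187306-34187580, so their motif matches are not independent.

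**Figure D1:**
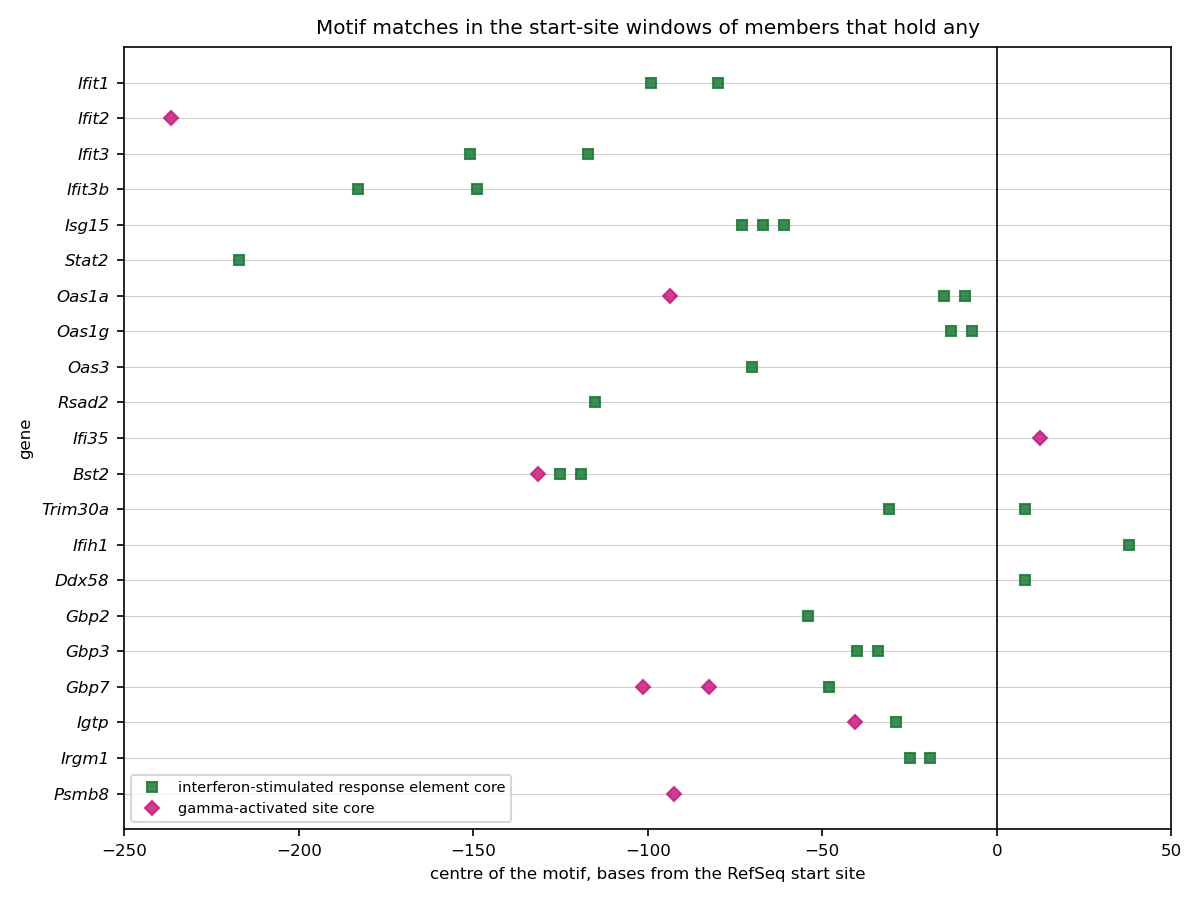
Centre of each motif match, in bases from the RefSeq start site, for the members whose windows hold an interferon-stimulated response element core (squares) or a gamma-activated site core (diamonds). The response element stands in 18 members and the gamma-activated site in 7, and most matches lie before the start.

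The members cluster in the genome as families. All 4 IFIT genes lie on chromosome 19, the 6 members of the OAS family and Gbp6 on chromosome 5, Gbp2, Gbp3 and Gbp7 with Ifi44 on chromosome 3, and Psmb8, Psmb9 and Tap1 on chromosome 17. An exon of 15 members overlaps an exon of another gene in the GENCODE annotation, among them Igtp with Irgm2 on the same strand, Irf7 with Phrf1 and Psmb9 with Tap1 on opposite strands. How the counting treated strand or overlapping exons is not stated. It is therefore unknown to which gene the reads from the overlapping stretches were given. Mx2 is annotated as a polymorphic pseudogene.

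Expression was measured in TPM, a share of transcripts, which corrects for gene length, so levels can be compared between genes. Bst2, which tethers budding virus to the cell surface, had the highest level, with group means of 348 to 469 TPM. Iigp1, an immunity-related GTPase, followed with group means of 140 to 188 TPM. Averaged over all livers, 21 members stood at 10 TPM or more and 5 stood under 3 TPM. Oas3, one of the enzymes that make the 2-5A messenger which turns on RNase L, was the lowest, with group means of 0.637 to 1.80 TPM. The interferons themselves were close to absent: none of 21 ligand genes passed the filter, and the highest value of any of them in any liver was 1.01 TPM. The depth of the libraries is unknown, because TPM does not keep it, so a low value cannot be given a counting error.

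Between 13180 and 14713 genes reached 1 TPM in a liver, and the summed level of 5 hepatocyte markers was 52999.7 to 142990.0 TPM. In 3 libraries the 15 skeletal muscle markers summed to far more than in the other 45, where they reached 739.6 TPM at most: 22165 TPM in M HFD mixture replicate 6, 8402 TPM in F LFD vehicle replicate 3 and 1814 TPM in F LFD mixture replicate 3. F LFD vehicle replicate 5 had the highest level within its group for 36 of the 39 members, and the highest of all 48 livers for 10. Where leaving these libraries out changed a call or a count, that is given beside the result. The 6 adrenal cortex markers summed to 1641 TPM in F LFD mixture replicate 3 and 91.9 TPM in M LFD mixture replicate 6. Their median sum over all 48 livers was 3.71 TPM. F LFD mixture replicate 3 also had the most genes at 1 TPM, 14713. Bulk RNA cannot tell fewer cells of a type from less RNA per cell. The labels name no batch and number the libraries anew within each diet, so a cohort difference between the diets and the diet itself cannot be told apart. A p-value here rests on the variation among the libraries of a group.

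As a summary, log2(TPM + 1) was averaged over the 39 members in each liver. The lowest, median and highest averages were 3.76, 3.92 and 4.03 in F HFD mixture livers and 3.62, 3.69 and 3.83 in F HFD vehicle livers. They were 3.33, 3.62 and 3.73 in F LFD mixture livers and 3.24, 3.51 and 4.06 in F LFD vehicle livers. Males lay lower, at 3.33, 3.49 and 3.78 in M HFD mixture livers, 3.40, 3.47 and 3.72 in M HFD vehicle livers, 3.12, 3.45 and 3.68 in M LFD mixture livers and 3.22, 3.42 and 3.48 in M LFD vehicle livers. Every F HFD mixture liver lay above every F LFD mixture liver, while the other diet pairs overlapped. Of the 39 members, 32 had their highest group mean in F HFD mixture livers. The same was not counted over all genes, and the members vary together, so these are not 32 independent genes.

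**Figure D2:**
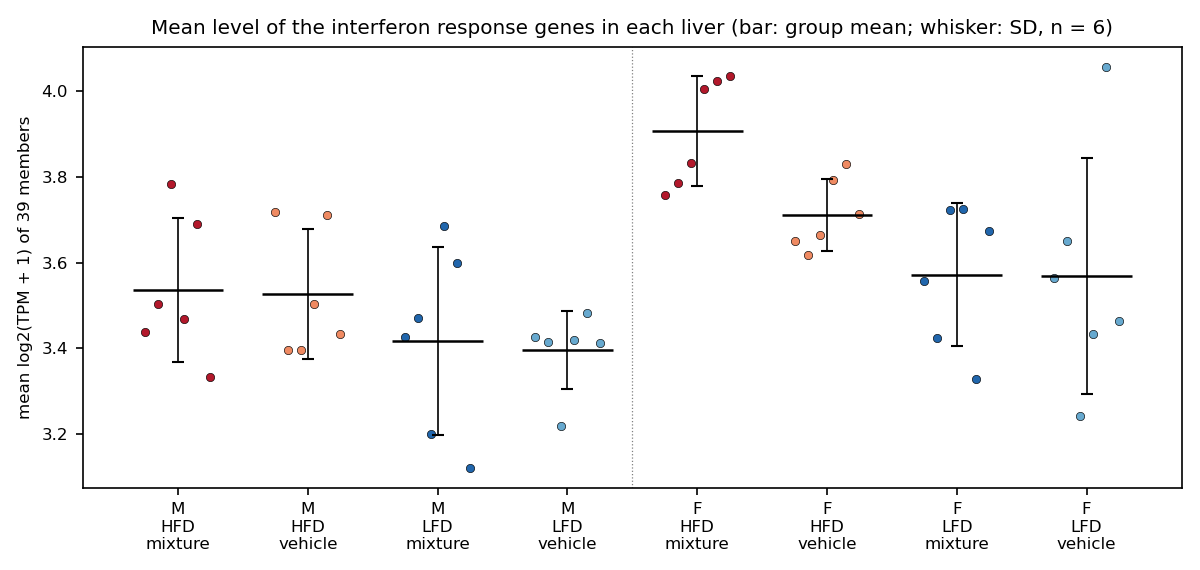
Mean log2(TPM + 1) of the 39 members in each of 48 livers (points), with the group mean (bar) and its SD (whisker, n = 6). The F HFD mixture livers sit at 3.76 to 4.03, above the F LFD mixture livers at 3.33 to 3.73, and F LFD vehicle replicate 5 stands at 4.06.

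High-fat diet raised IFIT, guanylate-binding protein and immunoproteasome genes in exposed females. In F HFD mixture against F LFD mixture livers, 16 of 39 members rose, where 11.5% of all genes tested rose, and 1 fell, where 7.74% of all genes fell. In either direction that was 43.6% of the members against 19.2% of all genes. The median log2 change was 0.28 over the members and -0.00 over all genes. After trimmed-mean scaling 12 members rose, where 10.1% of all genes rose, and 1 fell, where 9.86% of all genes fell. The p-values come from limma, a linear model fitted to all tested genes with a threshold of 0.05 after Benjamini-Hochberg adjustment.

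The IFIT proteins bind foreign RNA caps and block translation. Ifit3 had 27.8, 39.05 and 45.96 TPM (lowest, median, highest) in F HFD mixture livers, against 14.6, 17.9 and 22.6 TPM in F LFD mixture livers. The groups did not overlap, and the log2 change was 1.01 (SE 0.19, limma adjusted p = 0.000146). Ifit1 had 12.1, 13.1 and 17.1 TPM in F HFD mixture livers, against 5.42, 8.76 and 9.78 TPM in F LFD mixture livers, again without overlap (log2 change 0.67, SE 0.17, limma adjusted p = 0.00298). Ifit3b rose by 0.75 on the log2 scale (SE 0.17, limma adjusted p = 0.00124) and Ifit2 by 0.42 (SE 0.14, limma adjusted p = 0.0235), both with overlapping groups. The call of Ifit2 was lost in 3 of 12 refits that each left out 1 library.

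All 4 guanylate-binding proteins, GTPases that coat the vacuoles of intracellular microbes, rose in the same comparison. Gbp2 had 11.02, 11.8 and 17.2 TPM in F HFD mixture livers, against 5.54, 6.11 and 8.496 TPM in F LFD mixture livers (log2 change 0.85, SE 0.18, limma adjusted p = 0.000621). Gbp6 had 3.75, 4.12 and 4.99 TPM in F HFD mixture livers, against 0.884, 2.003 and 2.89 TPM in F LFD mixture livers (log2 change 0.84, SE 0.18, limma adjusted p = 0.000529). Neither of these genes overlapped between the diets. Gbp3 averaged 19.6 ± 4.46 TPM in F HFD mixture livers and 12.1 ± 2.93 TPM in F LFD mixture livers (SD, n = 6 each), with overlap. Gbp7 passed at a limma adjusted p of 0.0444, did not pass after scaling or without the filter, and lost its call in 9 of 12 refits that each left out 1 library.

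The immunoproteasome subunits followed. Psmb9 had 15.5, 17.8 and 20.5 TPM in F HFD mixture livers, against 7.66, 10.2 and 11.8 TPM in F LFD mixture livers (log2 change 0.80, SE 0.16, limma adjusted p = 0.000301). Psmb8 had 25.96, 31.04 and 43.3 TPM in F HFD mixture livers, against 21.2, 22.5 and 24.9 TPM in F LFD mixture livers (log2 change 0.45, SE 0.13, limma adjusted p = 0.0104). For both subunits every HFD liver lay above every LFD liver. Tap1, which carries the peptides into the endoplasmic reticulum, averaged 17.5 ± 2.33 TPM in F HFD mixture livers and 13.6 ± 3.17 TPM in F LFD mixture livers (SD, n = 6 each) and did not pass.

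Among the other effectors, Zbp1, a sensor of Z-form nucleic acid, had 6.102, 7.83 and 10.7 TPM in F HFD mixture livers, against 3.18, 4.12 and 6.002 TPM in F LFD mixture livers (log2 change 0.76, SE 0.18, limma adjusted p = 0.00183). Bst2 had 429, 445 and 540.3 TPM in F HFD mixture livers, against 311, 369 and 411 TPM in F LFD mixture livers (log2 change 0.35, SE 0.10, limma adjusted p = 0.00719). The groups did not overlap for either gene. Trim30a, Rtp4, Ifi35 and Oas3 passed with limma adjusted p-values of 0.0450, 0.0471, 0.0486 and 0.0492, and each lost its call in at least 7 of the refits that left out 1 library.

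Stat2 moved the other way. This transcription factor acts with Irf9 and is itself an interferon target. It had 34.2, 38.4 and 44.6 TPM in F HFD mixture livers, against 50.4, 53.99 and 65.1 TPM in F LFD mixture livers, so every HFD liver lay below every LFD liver (log2 change -0.49, SE 0.10, limma adjusted p = 0.000612). The 3 sensors of viral RNA, Ifih1, Ddx58 and Dhx58, did not pass, and neither did Isg15, the ubiquitin-like modifier, or its protease Usp18.

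In vehicle females fewer members were called, in the same direction. A direct test of the diet effect in exposed against vehicle females called 0 of 39 members and 0.00632% of all genes. Of the 39 members, 8 rose in F HFD vehicle against F LFD vehicle livers, where 14.4% of all genes rose, and 1 fell, where 13.5% of all genes fell. The share called in either direction was 23.1% of members and 28% of all genes, so it was not above the background. All 8 genes that rose, Ifit1, Ifit3, Bst2, Zbp1, Gbp6, Gbp7, Psmb8 and Psmb9, were among the 16 of the exposed females. Psmb9 had 11.5, 16.6 and 20.99 TPM in F HFD vehicle livers, against 7.16, 8.097 and 14.5 TPM in F LFD vehicle livers (log2 change 0.79, SE 0.16, limma adjusted p = 0.000211). Gbp6 averaged 3.88 ± 0.9504 TPM in F HFD vehicle livers and 2.07 ± 0.8005 TPM in F LFD vehicle livers (SD, n = 6 each), and the diets overlapped. Gbp7 averaged 13.4 ± 2.47 TPM in F HFD vehicle livers and 9.19 ± 2.91 TPM in F LFD vehicle livers (SD, n = 6 each), again with overlap.

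Stat2 was again lower on the high-fat diet, with 25.03, 33.03 and 41.3 TPM in F HFD vehicle livers, against 46.5, 51.2 and 63.2 TPM in F LFD vehicle livers, without overlap (log2 change -0.67, SE 0.10, limma adjusted p = 3.50e-06). Ifit3 had 23.6, 31.95 and 43.3 TPM in F HFD vehicle livers, against 11.5, 20.9 and 36.004 TPM in F LFD vehicle livers (log2 change 0.63, limma adjusted p = 0.0126). The calls of Ifit1, Ifit3 and Bst2 ended without F LFD vehicle replicate 3, a library with muscle transcripts. Leaving out F LFD vehicle replicate 5 raised the number of members called to 15, and leaving out replicate 3 lowered it to 6.

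**Figure D3:**
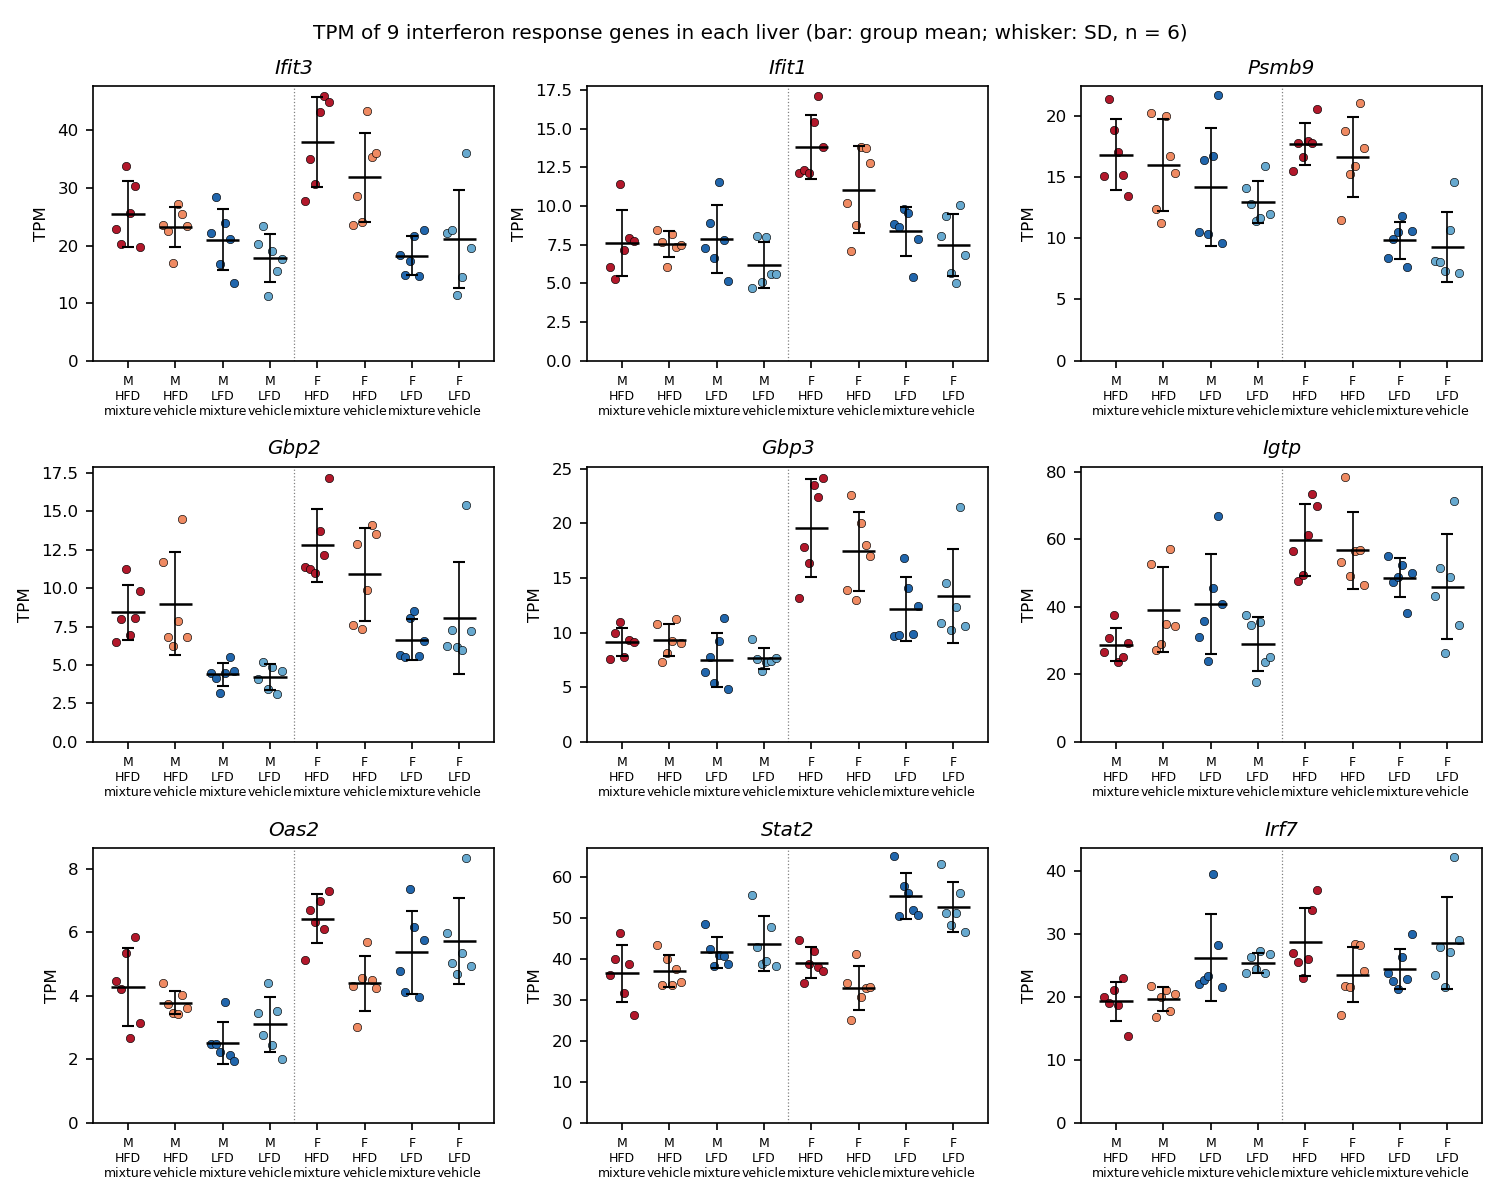
TPM of 9 members in each liver (points, with group mean as bar and SD as whisker, n = 6). Ifit3, Psmb9, Gbp2 and Gbp3 stand higher in F HFD mixture than in F LFD mixture livers and Stat2 stands lower, while Gbp3 and Igtp stand lower in M HFD mixture than in F HFD mixture livers.

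In males fewer members passed the test for diet, and the balance of the calls depended on how the libraries were scaled. In M HFD mixture against M LFD mixture livers 6 members rose, where 31.7% of all genes rose, and 3 fell, where 6.92% of all genes fell. In M HFD vehicle against M LFD vehicle livers 5 rose, where 25.6% of all genes rose, and 1 fell, where 5.82% of all genes fell. The share called in either direction was below that of all genes, at 23.1% of members against 38.6% in exposed males and 15.4% against 31.4% in vehicle males. Over the members the median log2 change was 0.15 in exposed and 0.17 in vehicle males. The median of all genes was itself raised on the high-fat diet in males, by 0.15 log2 in exposed and 0.11 in vehicle mice. A trimmed-mean scaling lowered that median by 0.16 and 0.12. After it, 6 members rose and 8 fell in exposed males, where 15.4% of all genes rose and 16.3% fell. In vehicle males 2 members rose and 6 fell after it, where 12.7% of all genes rose and 11.9% fell. Over all genes the share of calls that were higher was 82.1% before and 48.6% after scaling in exposed males, and 81.5% before and 51.7% after in vehicle males.

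All 9 calls in exposed males held under both scalings, while in vehicle males those of Gbp2, Gbp6 and Irf7 did. Gbp2 had 6.51, 8.02 and 11.3 TPM in M HFD mixture livers, against 3.18, 4.46 and 5.54 TPM in M LFD mixture livers (log2 change 0.80, SE 0.18, limma adjusted p = 0.000520). It had 6.24, 7.33 and 14.5 TPM in M HFD vehicle livers, against 3.14, 4.34 and 5.21 TPM in M LFD vehicle livers (log2 change 0.89, SE 0.18, limma adjusted p = 0.000179). The diets did not overlap in either pair. Ifit2 had 4.57, 5.27 and 7.597 TPM in M HFD mixture livers, against 2.88, 3.15 and 3.67 TPM in M LFD mixture livers, without overlap (log2 change 0.67, SE 0.14, limma adjusted p = 0.000135). In vehicle males Ifit2 averaged 4.71 ± 1.04 TPM in HFD livers and 3.61 ± 0.701 TPM in LFD livers (SD, n = 6 each) and did not pass.

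Of the OAS family, synthetases and related proteins that bind double-stranded RNA, 3 of 6 rose in exposed males. Oasl2 had 3.66, 4.67 and 6.701 TPM in M HFD mixture livers, against 2.64, 2.88 and 3.62 TPM in M LFD mixture livers (log2 change 0.54, SE 0.14, limma adjusted p = 0.00143). Oas2 averaged 4.28 ± 1.23 TPM in M HFD mixture livers and 2.51 ± 0.671 TPM in M LFD mixture livers (SD, n = 6 each, limma adjusted p = 0.00158). Oas3 averaged 1.27 ± 0.365 TPM in M HFD mixture livers and 0.637 ± 0.2397 TPM in M LFD mixture livers (SD, n = 6 each, limma adjusted p = 0.00645). Both overlapped between the diets, while Oasl2 did not. Trim30a, a ubiquitin ligase, rose in both male comparisons, by 0.51 in mixture and 0.37 in vehicle mice on the log2 scale, and the call in vehicle mice was lost after scaling. In vehicle males Gbp6 had 2.502, 2.74 and 5.31 TPM in HFD livers, against 0.957, 1.66 and 2.31 TPM in LFD livers, without overlap (log2 change 0.67, SE 0.18, limma adjusted p = 0.00294). Rsad2, the radical-SAM enzyme viperin, and Irgm1 also passed in vehicle males, with limma adjusted p-values of 0.0148 and 0.0257, and neither passed after scaling.

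Lower on the high-fat diet in males were Mx2, Irf7 and Iigp1. Mx2 had 1.87, 2.57 and 3.05 TPM in M HFD mixture livers, against 3.44, 4.13 and 5.099 TPM in M LFD mixture livers (log2 change -0.56, SE 0.13, limma adjusted p = 0.000833). Irf7, the factor that amplifies interferon production, had 13.8, 19.4 and 22.98 TPM in M HFD mixture livers, against 21.6, 23.01 and 39.5 TPM in M LFD mixture livers (log2 change -0.41, SE 0.14, limma adjusted p = 0.0140). It had 16.8, 20.2 and 21.7 TPM in M HFD vehicle livers, against 23.7, 25.4 and 27.2 TPM in M LFD vehicle livers (log2 change -0.36, SE 0.14, limma adjusted p = 0.0368). The vehicle livers did not overlap between diets, yet that call was lost in 5 of 12 refits that each left out 1 library and without the filter. The call in exposed males was lost in 2 of 12, without M HFD mixture replicate 6, a library with muscle transcripts, and without M LFD mixture replicate 4. Iigp1 had 120.3, 140.3 and 160.4 TPM in M HFD mixture livers, against 167, 185 and 219.7 TPM in M LFD mixture livers, without overlap (log2 change -0.43, SE 0.15, limma adjusted p = 0.0178).

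Averaged over the 4 pairs of groups, the high-fat diet raised 22 members, where 35% of all genes rose, and lowered 4, where 15.5% of all genes fell. In either direction that was 66.7% of the members against 50.5% of all genes. The 4 lower members were Stat2, Irf7, Irf9 and Mx2, so that all 3 transcription factors of the list fell. The call of Irf9, at a log2 change of -0.10, was lost in 10 refits that each left out 1 library. By family, 4 of 4 IFIT genes, 4 of 4 guanylate-binding proteins and 3 of 3 antigen processing genes rose, with 3 of 6 in the OAS family, 1 of 3 immunity-related GTPases and none of 3 RNA sensors. After trimmed-mean scaling 15 rose and 5 fell, where 24% of all genes rose and 26% fell. The 4 IFIT genes and 4 guanylate-binding proteins passed in both, while antigen processing genes then numbered 1 of 3, the OAS family 2 of 6 and the immunity-related GTPases 0 of 3 higher and 1 lower. Of all genes called, 69.2% were higher before scaling and 48% after it.

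Cell type markers moved with diet too. Of 5 tested monocyte and recruited macrophage markers, 5 rose in the average over the 4 pairs, and 5 of 8 Kupffer cell markers rose. Of the B cell markers 3 of 3 tested rose in the average, and of 3 tested T cell markers 1 fell. Of 2 tested neutrophil markers 1 rose in the average. By pair of groups, 2 rose in exposed males and 0 in vehicle males, exposed females and vehicle females. Of 5 liver endothelial markers 2 rose and 2 fell in the average. The Kupffer markers that rose were 5 in exposed males, 4 in vehicle males, 2 in exposed females and none in vehicle females. Their summed level was 720 to 1597 TPM in F HFD mixture livers, 420 to 822 TPM in F LFD mixture livers, 543 to 832 TPM in F HFD vehicle livers and 501 to 1319 TPM in F LFD vehicle livers. The medians were 779, 697, 637 and 707 TPM in the same order. The tops of 1597 and 1319 TPM came from F HFD mixture replicate 6 and F LFD vehicle replicate 5. Summed monocyte markers were 5.96 to 12.0 TPM in F HFD mixture and 2.38 to 4.93 TPM in F LFD mixture livers. In males they were 6.75 to 30.4 TPM in M HFD mixture and 2.15 to 2.93 TPM in M LFD mixture livers. Of 5 hepatocyte markers, 4 fell. The part of these shifts in the diet results was not tested.

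Whether the diet effect differed between the sexes was tested directly. In exposed mice the effect was more negative in males than in females for Ifit1 (difference of log2 changes -0.72, SE 0.24, limma adjusted p = 0.0296) and Irf7 (-0.62, SE 0.19, limma adjusted p = 0.0195). That was 2 of 39 members lower, where 3.65% of all genes were lower, and none higher, where 13.4% of all genes were. Ifit1 averaged 7.596 ± 2.14 TPM in M HFD mixture and 7.87 ± 2.19 TPM in M LFD mixture livers, against 13.8 ± 2.07 TPM in F HFD mixture and 8.36 ± 1.59 TPM in F LFD mixture livers (SD, n = 6 each). In vehicle mice the difference was negative for Psmb8 (-0.56, SE 0.18, limma adjusted p = 0.0265), where 3.47% of all genes were lower, and positive for Stat2 (0.44, SE 0.15, limma adjusted p = 0.0308), where 14.8% of all genes were higher. The calls of Irf7 and Psmb8 ended without the 3 libraries with muscle transcripts. Leaving out M LFD mixture replicate 4 alone ended the calls of both Ifit1 and Irf7. In 24 refits that each left out 1 library, the call was lost in 5 for Ifit1, 3 for Psmb8 and 7 for Stat2. Scaling lowered the median of all genes in these differences by 0.14 in exposed and 0.11 in vehicle mice. After it, 9 members were lower in exposed mice, where 6.98% of all genes were lower and 6.04% higher. They were Ifit1, Ifit3, Irf7, Parp14, Gbp7, Igtp, Iigp1, Psmb8 and Psmb9. In vehicle mice Psmb8 and Psmb9 were lower after it, where 6.11% of all genes were lower and 7.46% higher. No member was higher, and Stat2 did not pass (limma adjusted p = 0.126). How many members show such a difference therefore depends on the scaling.

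In each comparison of the sexes more members were called lower than higher in males, and the count was highest on the high-fat diet with the mixture. Whether the difference between the sexes itself differed between diets was tested only as the difference of diet effects given above. Whether it differed between mixture and vehicle mice was not tested, so the counts of the exposures cannot be set against each other. In M HFD mixture against F HFD mixture livers 17 of 39 members were lower and none was higher, where 5.56% of all genes were lower and 9.73% higher. In either direction that was 43.6% of the members against 15.3% of all genes. The median log2 difference was -0.39 over the members and 0.04 over all genes. After trimmed-mean scaling 23 were lower and none higher, where 7.65% of all genes were lower and 7.07% higher. Without the 3 libraries with muscle transcripts 13 were lower, and Ifit3, Parp14, Psmb8 and Trim30a no longer passed. Of all genes called, 63.7% were higher in males before scaling and 48% after it.

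Guanylate-binding proteins and an immunity-related GTPase had the smallest p-values. Gbp3 had 7.58, 9.23 and 10.998 TPM in M HFD mixture livers, against 13.1, 20.1 and 24.2 TPM in F HFD mixture livers (log2 difference -1.001, SE 0.17, limma adjusted p = 1.86e-05). Igtp had 23.7, 27.9 and 37.6 TPM in M HFD mixture livers, against 47.7, 58.999 and 73.6 TPM in F HFD mixture livers (log2 difference -1.02, SE 0.20, limma adjusted p = 0.000250). Gbp7 had 7.54, 8.24 and 8.45 TPM in M HFD mixture livers, against 10.6, 13.8 and 16.3 TPM in F HFD mixture livers (log2 difference -0.70, SE 0.14, limma adjusted p = 0.000259). The sexes did not overlap for any of these 3 genes.

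Ifit1 had 5.28, 7.44 and 11.4 TPM in M HFD mixture livers, against 12.1, 13.1 and 17.1 TPM in F HFD mixture livers (log2 difference -0.81, SE 0.17, limma adjusted p = 0.000443). Irf7 had 13.8, 19.4 and 22.98 TPM in M HFD mixture livers, against 23.01, 26.5 and 36.9 TPM in F HFD mixture livers (log2 difference -0.55, SE 0.14, limma adjusted p = 0.00323). Both were again separate between the sexes. Mx2, Oas2, Ifi44, Ifit3b, Zbp1 and Mx1, the last a gene of the dynamin-like GTPase family, were lower, and their groups overlapped. Their log2 differences were -0.63 to -0.47, with limma adjusted p-values of 0.00516 to 0.0205. The 6 members with the largest adjusted p-values, Trim30a, Psmb8, Gbp2, Parp14, Iigp1 and Ifit3, each lost the call in 6 to 9 of 12 refits without 1 library.

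In vehicle mice on the high-fat diet 4 members were lower in males, where 3.53% of all genes were lower, and none was higher, where 8.26% of all genes were. The share in either direction was 10.3% of members and 11.8% of all genes. The median log2 difference was -0.16 over the members and 0.04 over all genes. Gbp3 had 7.34, 9.17 and 11.2 TPM in M HFD vehicle livers, against 13.01, 17.5 and 22.6 TPM in F HFD vehicle livers, without overlap (log2 difference -0.83, SE 0.17, limma adjusted p = 0.000467). Gbp7 averaged 8.91 ± 2.17 TPM in M HFD vehicle livers and 13.4 ± 2.47 TPM in F HFD vehicle livers (SD, n = 6 each, limma adjusted p = 0.00528). Zbp1 and Psmb8 passed with limma adjusted p-values of 0.0307 and 0.0476. All 4 were among the 17 of the exposed mice. After scaling 8 were lower, where 4.67% of all genes were lower, and 56.2% of all genes called were higher in males instead of 70.1%.

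On the low-fat diet Oas2 was lower in males in both exposures, before and after scaling. In each exposure 9 members were lower in males and 1 was higher, and 7 of the 9 were shared: Oas1g, Oas2, Oas3, Oasl2, Trim30a, Gbp2 and Gbp3. Of these 7, Oas1g, Oas3, Oasl2 and Gbp2 did not pass after scaling in mixture mice, and Oas1g and Trim30a did not in vehicle mice. Oas1g lost its call in 5 of 12 refits without 1 library in mixture and 7 of 12 in vehicle mice. Of all genes 16.6% were lower and 4.92% higher in mixture mice, and 17.1% lower and 6.61% higher in vehicle mice. In either direction the share was 25.6% of members in each exposure. That is close to the background of 21.5% of all genes in mixture and 23.7% in vehicle mice. In mixture mice the median log2 difference was -0.11 over the members and -0.11 over all genes. In vehicle mice it was -0.17 over the members and -0.09 over all genes. After scaling the member medians were -0.01 in mixture and -0.08 in vehicle mice, against -0.01 over all genes in each. Oas2 had 1.96, 2.35 and 3.82 TPM in M LFD mixture livers, against 3.97, 5.26 and 7.37 TPM in F LFD mixture livers (log2 difference -0.85, SE 0.15, limma adjusted p = 2.12e-05). It had 2.02, 3.11 and 4.399 TPM in M LFD vehicle livers, against 4.69, 5.198 and 8.33 TPM in F LFD vehicle livers (log2 difference -0.72, SE 0.15, limma adjusted p = 0.000211). The sexes did not overlap for Oas2 in either exposure.

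Gbp3 had 6.44, 7.49 and 9.42 TPM in M LFD vehicle livers, against 10.3, 11.6 and 21.5 TPM in F LFD vehicle livers (log2 difference -0.70, SE 0.17, limma adjusted p = 0.00151). In mixture mice it averaged 7.51 ± 2.46 TPM in M LFD livers and 12.1 ± 2.93 TPM in F LFD livers (SD, n = 6 each, limma adjusted p = 0.00390). Gbp3 was thereby the 1 member called in all 4 comparisons of the sexes. Stat2 was lower in males in mixture mice, at 38.2, 40.8 and 48.5 TPM in M LFD mixture livers, against 50.4, 53.99 and 65.1 TPM in F LFD mixture livers (log2 difference -0.40, SE 0.10, limma adjusted p = 0.00436). In vehicle mice Stat2 averaged 43.7 ± 6.81 TPM in M LFD livers and 52.7 ± 6.12 TPM in F LFD livers (SD, n = 6 each) and did not pass.

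Psmb9 went the other way on the low-fat diet. It averaged 14.2 ± 4.84 TPM in M LFD mixture livers and 9.81 ± 1.52 TPM in F LFD mixture livers (SD, n = 6 each, limma adjusted p = 0.0437), and 12.95 ± 1.72 TPM in M LFD vehicle livers and 9.303 ± 2.85 TPM in F LFD vehicle livers (SD, n = 6 each, limma adjusted p = 0.0293). Neither call held without the libraries with muscle transcripts. Without them 7 members were lower in mixture mice and 12 in vehicle mice, none was higher, and Gbp2 and Oasl2 no longer passed in mixture mice. In vehicle mice the calls of Ifit2, Igtp, Trim30a and Oas1g ended without F LFD vehicle replicate 5, which left 8 members called. After trimmed-mean scaling 3 members were higher and 5 lower in mixture mice, where 8.94% of all genes were higher and 8.43% lower. In vehicle mice 4 were then higher and 6 lower, where 10.3% of all genes were higher and 11.2% lower. The share of all called genes that were higher in males was 51.5% instead of 22.9% in mixture and 48% instead of 27.9% in vehicle mice.

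Averaged over the 4 pairs, 23 members were lower in males, where 19% of all genes were lower, and 1, Tap1, was higher, where 12.2% of all genes were. In either direction that was 61.5% of the members against 31.2% of all genes. After scaling 19 were lower, where 15.8% of all genes were lower, and 3 higher, where 15.1% were, and Ifit2, Ifit3, Mx2 and Usp18 no longer passed. The lower members included 5 of 6 in the OAS family, 4 of 4 IFIT genes, 3 of 4 guanylate-binding proteins, both Mx genes and 1 of 3 immunity-related GTPases. After scaling 2 of 4 IFIT genes were lower, and Ifit3, Ifit2 and Usp18 lost their calls in 30, 26 and 14 of 48 refits that each left out 1 library. None of 3 RNA sensors passed before scaling, and 1 was higher after it. Kupffer cell markers were also lower in males: 7 of 8 in the average, 7 in each exposure on the low-fat diet, 3 in mixture and 1 in vehicle mice on the high-fat diet. Their summed level was 197 to 439 TPM in M LFD mixture and 420 to 822 TPM in F LFD mixture livers, and 430 to 738 TPM in M HFD mixture and 720 to 1597 TPM in F HFD mixture livers. It was 274 to 637 TPM in M LFD vehicle and 501 to 1319 TPM in F LFD vehicle livers, and 491 to 738 TPM in M HFD vehicle and 543 to 832 TPM in F HFD vehicle livers. In the order given, the medians were 369, 697, 553 and 779 TPM with the mixture and 367, 707, 547 and 637 TPM with vehicle. Liver endothelial markers were lower in males as well, 3 of 5 in the average and 4 of 5 in each exposure on the low-fat diet. Their summed level was 86.7 to 106 TPM in M LFD mixture and 125 to 151 TPM in F LFD mixture livers, and 82.7 to 105 TPM in M LFD vehicle and 115 to 192 TPM in F LFD vehicle livers, without overlap. Of 5 tested monocyte and recruited macrophage markers, 2 were higher in males in the average and 0 lower. The part of these cell types in the difference between the sexes was not tested. Siglech, a defining gene of plasmacytoid dendritic cells, which are strong producers of type I interferon, stood at 0.115 to 1.25 TPM over all livers.

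**Figure D4:**
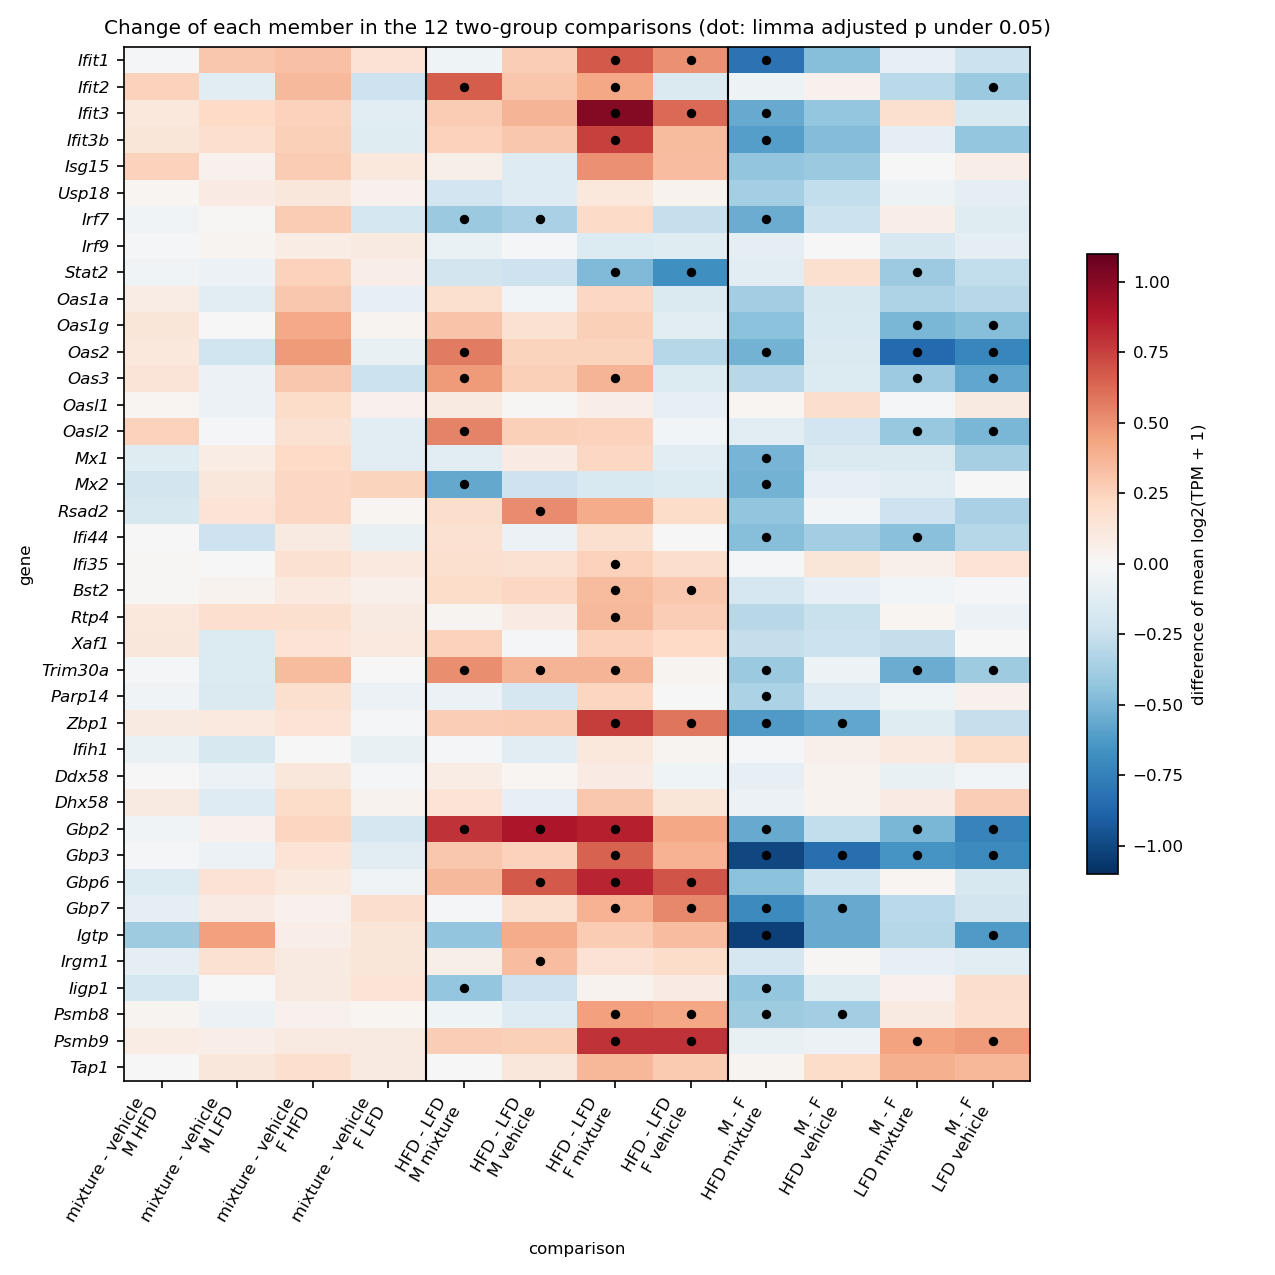
Difference of mean log2(TPM + 1) for the 39 members (rows) in the 12 comparisons of 1 group with another (columns), with a dot where the limma adjusted p was under 0.05. No dot stands in the 4 mixture columns, the diet column with the most dots, 17, is that of exposed females, and all dots of the sex block on the high-fat diet are on lower values in males.

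No member passed the test for the mixture in either sex on either diet. Against vehicle, 0 of 39 members were called in M HFD livers, where 0.0948% of all genes were called (0.0695% higher and 0.0253% lower), and 0 in M LFD livers, where 0.0379% were. In females 0 were called in F HFD livers, where 0.0126% of all genes were called, and 0 in F LFD livers, where 0.0379% were. At an unadjusted p under 0.05 limma gave 0 members in M HFD livers, 1 higher and 1 lower in M LFD livers, 7 higher in F HFD livers and 0 in F LFD livers. In F HFD livers that was 17.9% of members against 4.24% of all genes, and in M LFD livers 5.13% against 5.25%. Of all genes 9.39% passed it in M HFD livers and 9.5% in F LFD livers. The smallest limma adjusted p of any member was 0.554 in M HFD livers, 0.936 in M LFD livers, 1 in F HFD livers and 0.569 in F LFD livers. In the average over the 4 strata 0 members were called, against 0.0948% of all genes, and 2 passed an unadjusted p of 0.05, which is 5.13% of members against 11.7% of all genes. The 95% intervals of all members in that average lay between log2 changes of -0.19 and 0.37.

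The 4 members with the largest changes in each stratum show what was measured. In F HFD livers Oas2 had 5.13, 6.51 and 7.303 TPM with the mixture, against 3.01, 4.41 and 5.69 TPM with vehicle (log2 change 0.47, 95% interval 0.18 to 0.77). Oas1g averaged 3.41 ± 0.516 TPM with the mixture and 2.32 ± 0.617 TPM with vehicle (SD, n = 6 each). Ifit2 averaged 5.98 ± 0.656 TPM with the mixture and 4.46 ± 0.534 TPM with vehicle, and Trim30a 9.74 ± 2.27 TPM with the mixture and 7.3003 ± 0.518 TPM with vehicle (SD, n = 6 each). All 4 had a limma adjusted p of 1. All 39 members had positive log2 changes in F HFD livers, with a median of 0.18, where 61.5% of all genes were positive with a median of 0.03. The members vary together from mouse to mouse, so this count does not stand for 39 independent genes.

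In M HFD livers Igtp averaged 28.8 ± 5.03 TPM with the mixture and 39.2 ± 12.6 TPM with vehicle (log2 change -0.39, 95% interval -0.80 to 0.02). In M LFD livers it averaged 40.8 ± 14.9 TPM with the mixture and 29.1 ± 8.01 TPM with vehicle (log2 change 0.45, 95% interval 0.04 to 0.86). The groups overlapped in both diets. The other largest changes in M HFD livers were 0.26 for Isg15, 0.26 for Oasl2 and 0.25 for Ifit2, and in M LFD livers 0.30 for Ifit1, -0.23 for Ifi44 and 0.22 for Ifit3. In F LFD livers they were 0.24 for Mx2, -0.24 for Oas3, -0.23 for Ifit2 and 0.20 for Gbp7. The test of whether the mixture effect differed between the diets called 0 of 39 members in males and 0 in females, where 0.00632% of all genes were called in each sex. At an unadjusted p under 0.05, 1 member was lower in males, 2.56% of members against 7.32% of all genes, and 4 were higher in females, 10.3% against 4.64%.

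Of the 39 members, 29 were called in at least 1 of the 12 comparisons of 1 group with another. The same share was not counted over all genes, so the 29 cannot be set against a background. A single comparison called up to 38.6% of all genes. The 10 called in none were Isg15, Usp18, Irf9, Oas1a, Oasl1, Xaf1, Ifih1, Ddx58, Dhx58 and Tap1. They include all 3 RNA sensors and both parts of the ISG15 system. Isg15 averaged 30.99 ± 4.63 TPM in F HFD mixture livers and 21.9 ± 4.86 TPM in F LFD mixture livers (SD, n = 6 each), and the diets overlapped.

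The members rose and fell together from mouse to mouse within a group. Each member's deviation from its group mean was correlated with that of every other member over the 48 livers. The median Pearson correlation of the 741 pairs was 0.446, with a range of -0.142 to 0.845, and 734 pairs were above 0. Between a member and any other tested gene the median was 0.0425 over 615459 pairs. Without F LFD vehicle replicate 5 the median of the member pairs was 0.380. These are descriptions across libraries that share their scaling and their cell makeup, so no p-value is given.

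The tightest pairs were Ifit1 with Rsad2 (0.845), Ifit1 with Ifit3b (0.830), Ifit2 with Trim30a (0.826), Ifit3 with Ifit3b (0.814) and Oasl2 with Ifit2 (0.813). Among the GTPases, Igtp was closest to Gbp7 (0.770) and Gbp6 to Irgm1 (0.758), and Psmb8 was closest to Psmb9 (0.769). Rtp4 and Gbp3 followed the whole list most closely, with median correlations of 0.557 and 0.546 with the other members. Stat2 and Ifih1 followed it least, at 0.245 and 0.248. Outside the list, Samhd1 had the highest median correlation with the members, at 0.562. Samhd1, which degrades nucleotides needed for viral replication, was chosen after its values were seen.

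**Figure D5:**
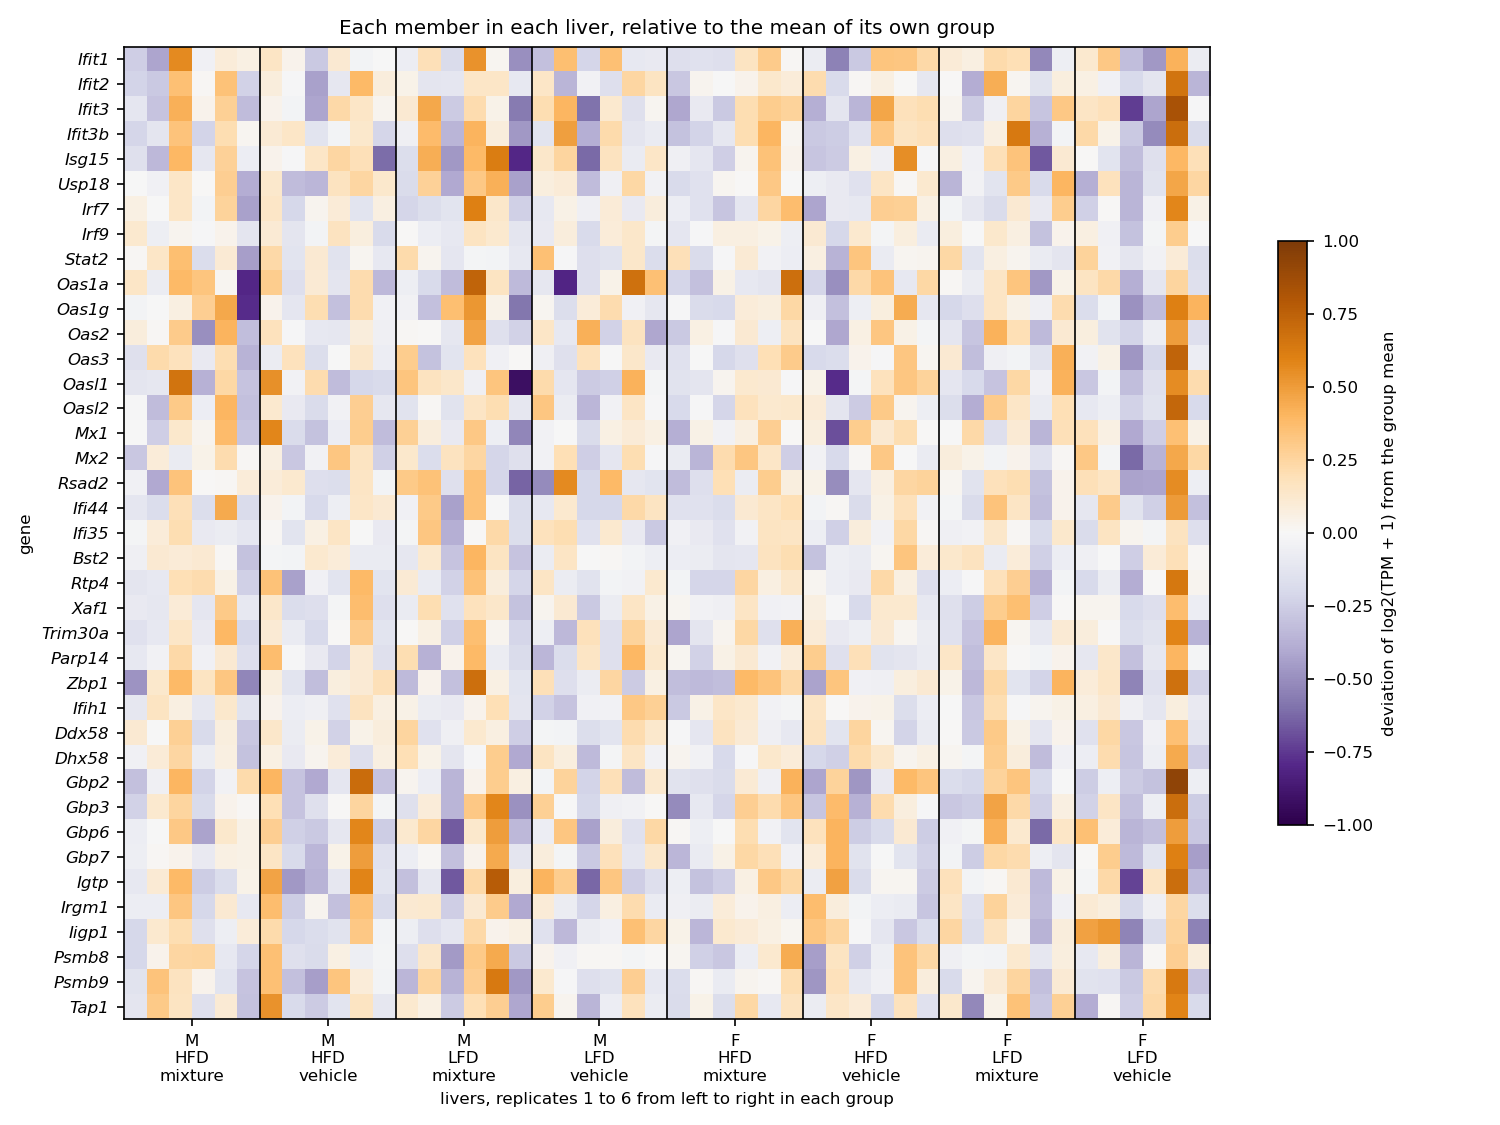
Deviation of log2(TPM + 1) from the group mean for each member (rows) in each of 48 livers (columns, replicates 1 to 6 in each group). Single livers are raised or lowered across most rows: F LFD vehicle replicate 5 is highest in its group for 36 of 39 members and F LFD vehicle replicate 3 is lowest for 25.

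The rest of the pathway gave context for these levels. Of 117 other genes of the interferon pathway, 91 were tested. Ifnar1 had group means of 15.7 to 17.9 TPM and Ifnar2 of 38.3 to 49.4 TPM, while Ifnlr1, the receptor of type III interferon, had 0.112 to 0.282 TPM and was not tested. Ifngr2, a receptor chain of interferon gamma, was higher on the high-fat diet in all 4 pairs. It averaged 20.8 ± 1.65 TPM in F HFD mixture livers and 12.9 ± 1.74 TPM in F LFD mixture livers, and 24.01 ± 2.63 TPM in M HFD mixture livers and 13.4 ± 2.801 TPM in M LFD mixture livers (SD, n = 6 each). Its log2 change was 0.67 in the average over pairs (SE 0.05, limma adjusted p = 1.61e-14).

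Of the 91 pathway genes, 22 rose and 2 fell on the high-fat diet in exposed females, 15 rose and 9 fell in vehicle females, 34 rose and 9 fell in exposed males and 24 rose and 7 fell in vehicle males. Of all genes 11.5% rose and 7.74% fell in exposed females, 14.4% rose and 13.5% fell in vehicle females, 31.7% rose and 6.92% fell in exposed males, and 25.6% rose and 5.82% fell in vehicle males. The 15 and 24 that rose in vehicle females and males are close to these shares of 91. The 34 in exposed males lie only a little above theirs. The pathway genes were not counted again after scaling. In exposed females Gbp10 averaged 9.99 ± 2.11 TPM in HFD and 2.58 ± 1.17 TPM in LFD livers (SD, n = 6 each, log2 change 1.67, limma adjusted p = 2.42e-06). The immunoproteasome subunit Psmb10 and the proteasome activator Psme2 rose there as well, by 0.71 and 0.46 on the log2 scale. Helz2, a helicase that coactivates nuclear receptors, fell: it averaged 24.1 ± 1.74 TPM in F HFD mixture livers and 40.4 ± 6.71 TPM in F LFD mixture livers (SD, n = 6 each, limma adjusted p = 6.53e-05). In vehicle males Cxcl10, a chemokine that draws T cells, averaged 7.75 ± 3.05 TPM in HFD livers and 2.22 ± 1.02 TPM in LFD livers (SD, n = 6 each, limma adjusted p = 1.30e-05). Between the sexes 41 pathway genes were lower and 3 higher in males in the average over pairs, where 19% of all genes were lower and 12.2% higher. The mixture called none of the 91 in any stratum, at a limma adjusted p under 0.05.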

How the data were processed

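RNA of 48 livers, 6 in each of 8 groups, was measured by RNA sequencing. The authors deposited 1 table of gene-level TPM values. FastQC, Trimmomatic 0.36, STAR 2.5.2b, DESeq2 and the GRCm38 build are named, without role or order, per the submitters' processing notes. No source used here states the counter, its annotation, its gene lengths or its strand setting. TPM keeps no depth, so the depth per library is unknown.

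Groups came from the sample labels. A gene was tested if 6 or more libraries reached 1 TPM, which held for 15820 of 49315. Log2(TPM + 1) was fitted with limma 3.58.1 in R 4.3.3 in 1 model of 8 groups with 40 residual degrees of freedom and a mean-variance trend. The 19 comparisons were each adjusted over all genes tested by the Benjamini-Hochberg method, and the threshold was 0.05. Fold changes are on the log2(TPM + 1) scale, which understates the change of low genes. The code was tested on simulated data. No pair of libraries was identical, and the highest correlation between libraries was 0.983.

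The alternatives were a trimmed-mean scaling (trimming 30% of log ratios and 5% of levels from either end, written for this work), no filter, a pseudocount of 0.1 TPM, a term for the replicate number, only the groups compared, leaving out 3 libraries with muscle transcripts, and leaving out each library in turn. The members, gene lists, tests and alternatives were chosen with earlier results of these data known. Values are given for members called in a comparison, at most 12 by smallest p, or for the 4 largest changes where none was called. At most 8 other pathway genes were eligible per comparison by the same order. Promoter windows came from RefSeq.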

Additional observations from a re-analysis of the deposited data

Results flagged for a closer look

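In groups of 6 livers a library was marked where its gap to the nearest other library was large against the range of its group. Of 320 such tests 15 marked a library, 6 high and 9 low, and chance marks about 1 test in 20. The mean log2(TPM + 1) of the 39 members was low in M LFD vehicle replicate 3, at 3.22, against 3.41 to 3.48 in the other 5 livers. F LFD vehicle replicate 5 was high for Oasl2, at 8.52 TPM against 3.93 to 4.56 TPM in the others, and for Gbp2, at 15.4 TPM against 5.97 to 7.28 TPM. F HFD vehicle replicate 2 was low for Oasl1, at 6.50 TPM against 11.7 to 15.2 TPM, and for Mx1, at 0.644 TPM against 1.66 to 2.24 TPM.

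In F HFD mixture livers Ifit2 was low in replicate 1 (4.74 TPM), Iigp1 was low in replicate 2 (146 TPM), Xaf1 was high in replicate 4 (6.01 TPM) and Oas1a was high in replicate 6 (14.1 TPM). In F LFD mixture livers Parp14 was low in replicate 2 (7.72 TPM) and Irf9 in replicate 5 (14.98 TPM). In M LFD mixture livers Oas2 was high in replicate 4 (3.82 TPM) and Oasl1 low in replicate 6 (6.43 TPM). Isg15 was low in M HFD vehicle replicate 6 (11.9 TPM), and Bst2 was high in M LFD vehicle replicate 2 (387 TPM).

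The test of the difference between the diet effects of males and females called 4 members. Each of these calls was lost in at least 1 refit that left out 1 library. Both calls in exposed mice ended without M LFD mixture replicate 4. In exposed mice the difference of log2 changes was -0.72 for Ifit1 and -0.62 for Irf7. In vehicle mice it was -0.56 for Psmb8 and 0.44 for Stat2, and Stat2 did not pass after scaling.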

How the results depend on the processing

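Of 136 calls of members over all comparisons none changed direction under any alternative. Calls lost numbered 35 without the filter, 26 with trimmed-mean scaling, 19 of 86 with only the groups compared, 15 without the 3 libraries with muscle transcripts and 4 with a pseudocount of 0.1 TPM. Scaling gave 14 members called instead of 9 for diet in exposed males, 8 instead of 4 between the sexes in HFD vehicle mice, and 9 instead of 2 for the difference of diet effects in exposed mice. Without the filter the counts were 3 instead of 6 for diet in vehicle males. Between the sexes they were then 5 instead of 10 (LFD mixture), 6 instead of 10 (LFD vehicle), 11 instead of 17 (HFD mixture) and 2 instead of 4 (HFD vehicle). For the difference of diet effects they were 1 instead of 2 in exposed and 0 instead of 2 in vehicle mice. With only the groups compared the sexes differed in 6 members on LFD in each exposure, and the difference of diet effects in exposed mice called 5. That difference called 1 member without the 3 libraries with muscle transcripts. The cause of these changes was not tested. With 1 library left out in turn, the diet counts were 9 to 13 in exposed males, 3 to 7 in vehicle males, 11 to 18 in exposed females and 6 to 15 in vehicle females. The counts between the sexes were 6 to 11 (LFD mixture), 8 to 12 (LFD vehicle), 11 to 18 (HFD mixture) and 2 to 6 (HFD vehicle). The averages ranged from 25 to 27 for diet and 20 to 27 for sex, the differences of diet effects from 0 to 4 in exposed and 1 to 3 in vehicle mice, and all mixture comparisons stayed at 0 to 0. Some of these counts lay over 1.5 times from the full value. For diet they came without M HFD vehicle replicate 5 (3), F LFD mixture replicate 2 or 5 (11) and F LFD vehicle replicate 5 (15). For sex on LFD they came without M LFD mixture replicate 2 or F LFD mixture replicate 3 (6). For sex on HFD with the mixture they came without M HFD mixture replicate 1 or F HFD mixture replicate 6 (11). For sex on HFD with vehicle they came without M HFD vehicle replicate 2 or 3 or F HFD vehicle replicate 5 or 6 (2). The differences of diet effects moved as far in some refits. In exposed mice these included M LFD mixture replicate 4 (0) and 3 (4), and in vehicle mice M LFD vehicle replicate 4 (1). A replicate block lost 1 call, Ifi35 for diet in exposed females, and gave 4 members instead of 2 for the difference of diet effects in exposed mice. Mixture and vehicle livers of the same number had correlations of deviations from -0.0856 to 0.438. The best match was the own number for 1, 0, 2 and 0 of 6 in M LFD, M HFD, F LFD and F HFD mice. Same-number correlations above 0.1 numbered 1, 0, 4 and 1 of 6 in the same order. Most livers were thus not matched best by their own number. Livers of the same number were not compared across diets or sexes, so a pairing there was not tested. Depth is unknown, so the limit it sets on low members such as Oas3 is unknown too.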
